A study of Homo sapiens with 6 samples.

Results

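EGFR, 2 further receptors of the ERBB family, 4 of their ligands, the ligand-releasing protease ADAM17 and the negative regulators ERRFI1 and CBL were followed in KYSE-150 cells, an established line from a human squamous carcinoma of the esophagus. These 10 genes, taken from a fixed list by symbol, all had a row among the 29816 genes of the deposited expression table. Cells were transfected with si-circTMEM45A, a small interfering RNA aimed at circTMEM45A (a circular RNA named after its host gene TMEM45A), or with the negative control si-NC, and each group had 3 libraries of polyA-selected RNA. Both groups share the line and the RNA preparation; the labels name 1 small interfering RNA per group, and no dose or time after transfection was found in them.

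The ERBB receptors are transmembrane tyrosine kinases that pair up when a ligand binds and pass the signal to the RAS-ERK and PI3K-AKT cascades. Their ligands are made as membrane-anchored precursors and are freed by metalloproteases, of which ADAM17 serves AREG, EREG, HBEGF and TGFA. Signalling is ended by inhibitors such as ERRFI1, which binds the kinase domain, and by ubiquitin ligases such as CBL, which send the receptor to the lysosome. EGFR is often present at high levels in squamous carcinomas of the esophagus.

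EGFR RNA was lower and the RNA of ERBB2 and of the ligand TGFA was higher with si-circTMEM45A. EGFR went from 58.5 ± 1.68 to 37.6 ± 0.29 FPKM, ERBB2 from 17.8 ± 0.83 to 22.6 ± 1.07 FPKM and TGFA from 13.4 ± 0.26 to 17.9 ± 0.03 FPKM (SD, n = 3 libraries per group). FPKM counts fragments per kilobase of gene relative to library depth. The length covers all annotated exons of a gene (12521 bases for EGFR, 1648 for AREG), whether or not they were expressed here. Comparisons of level between genes, and shares and ratios built on them, therefore depend on the annotation. Of the 9 members with enough signal to test (FPKM of at least 1 in at least 3 libraries), limma called 3 at the adjusted threshold of 0.05, namely 2 higher and 1 lower, against 18.8% of all 12676 genes tested (11.1% higher and 7.64% lower). The other 6 tested members did not pass, and EREG was too low to test.

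The RefSeq windows of the 3 genes that passed are shown first, since they differ in the short motifs they hold. Each is the 250 bases before the outermost start that RefSeq lists (GRCh38.p14), 5′ to 3′ on the gene's strand. The gene coordinates given below come from GENCODE 29, whose starts differ from these for some genes. By them the whole TGFA and ADAM17 windows and most of the ERBB2 window lie inside the gene, and the EGFR window lies before it. Motifs are thus compared over unlike regions. Capitals mark matches to any of 5 short motifs. The GC box, bound by SP1-type factors, was searched as GGGCGG on both strands. The core bound by ETS factors, which act at the end of the ERK cascade, was searched as CGGAAG on both strands. The AP-1 site, bound by FOS and JUN family dimers, was searched as TGANTCA on both strands. The TATA box, which positions the start of transcription, was searched as TATAAA on the gene's strand only. A pyrimidine-rich repeat unit was searched as TCCTCC on both strands.
EGFR, chr7:55018767-55019016, + strand: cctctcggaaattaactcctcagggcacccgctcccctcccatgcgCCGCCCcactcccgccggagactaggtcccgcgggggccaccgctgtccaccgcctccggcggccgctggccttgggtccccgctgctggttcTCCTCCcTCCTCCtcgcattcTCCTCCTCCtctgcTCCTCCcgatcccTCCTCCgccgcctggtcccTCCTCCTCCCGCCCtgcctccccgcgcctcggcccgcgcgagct
ERBB2, chr17:39687844-39688093, + strand: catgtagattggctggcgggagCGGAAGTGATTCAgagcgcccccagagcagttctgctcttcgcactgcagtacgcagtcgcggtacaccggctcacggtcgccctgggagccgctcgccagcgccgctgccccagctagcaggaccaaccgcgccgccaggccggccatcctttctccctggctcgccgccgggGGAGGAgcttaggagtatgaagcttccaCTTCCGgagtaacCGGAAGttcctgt
TGFA, chr2:70553827-70554076, - strand: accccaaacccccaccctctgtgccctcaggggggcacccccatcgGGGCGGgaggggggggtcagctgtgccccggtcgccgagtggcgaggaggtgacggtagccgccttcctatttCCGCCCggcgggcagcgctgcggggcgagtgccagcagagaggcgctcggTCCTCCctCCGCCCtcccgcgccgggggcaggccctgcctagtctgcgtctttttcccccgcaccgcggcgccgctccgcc
The EGFR window held 8 TCCTCC matches, some of them overlapping each other or a GC box, and 2 GC boxes. The TGFA window held 3 GC boxes and 1 TCCTCC. ERBB2 differed from both, with 0 GC boxes, 3 ETS cores, 1 AP-1 match that directly follows an ETS core with no shared base, and 1 TCCTCC. None of the 3 windows held TATAAA. Windows of members that were not called held some of the same motifs. GC boxes numbered 0 in EREG, 1 in AREG and in ERRFI1, 3 in ADAM17 and 5 in HBEGF. ETS cores numbered 1 in HBEGF and in ADAM17 and 0 in AREG, EREG and ERRFI1. TCCTCC matches numbered 3 in EREG and in HBEGF, 1 in AREG and in ERRFI1 and 0 in ADAM17. The TATA box had 1 match in AREG and in EREG and 0 in HBEGF, ADAM17 and ERRFI1. The AP-1 site had 0 matches in AREG, EREG, HBEGF, ADAM17 and ERRFI1. Among all 35116 windows of this length, 42.6% held a GC box, 16.5% an ETS core, 6.57% an AP-1 match, 6.80% a TATA box and 31.8% a TCCTCC. The GC content was 73.6% for EGFR, 75.6% for TGFA and 65.6% for ERBB2, against a median of 58% over all windows. RefSeq listed a second start for EGFR and for TGFA, and which start was used cannot be read from values per gene. A match is a string of letters and was not tested as a binding site.

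The libraries held 16636248 to 17323964 gene-assigned reads. TMEM45A, the host gene, fell from 3.12 ± 0.19 to 2.12 ± 0.22 FPKM (SD, n = 3; limma adjusted p = 0.0167), a call lost in limma without si-NC replicate 1 (adjusted p = 0.057), si-NC replicate 3 (0.0548) or si-circTMEM45A replicate 3 (0.0513) and with no filter on low values (0.0614). The circle itself was not measured. Squamous identity was visible in KRT5 at 231 to 373 FPKM, and 8 of 10 squamous markers reached 1 FPKM. Markers of other cell types were low: no fibroblast marker was above 2.12 FPKM, no endothelial one above 1.19, no immune one above 0.851 and no columnar one above 0.0889 FPKM in any library. The labels do not state that libraries of 1 group come from different cultures, so every p-value rests on a spread that may be purely technical. In bulk RNA, fewer cells with a transcript and less of it per cell cannot be told apart. Over all genes, 1411 were higher and 969 lower, and the balance moved to 1021 and 1237 with median-of-ratios scaling and to 1119 and 1168 with quantile normalization. The total of 2380 dropped to 1448, 1405 and 1513 without si-NC replicates 1, 2 and 3, and to 1369 and 1360 without si-circTMEM45A replicates 2 and 3.

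EGFR (ENSG00000146648, GRCh38 chromosome 7, 55019021 to 55211628) encodes the receptor of all 4 ligands in the list. Its FPKM in the si-NC libraries was 57.1, 57.9 and 60.4, and in the si-circTMEM45A libraries 37.8, 37.2 and 37.7. The groups were far apart, and the si-circTMEM45A libraries lay closer together than the si-NC libraries. The log2 fold change was -0.62 ± 0.03 (SE, n = 3; limma adjusted p = 0.000530), and the mean FPKM fell by 35.8%. These levels rested on 7867 to 12812 reads per library. With si-NC, 4.95% of tested genes had a higher mean FPKM than EGFR, and with si-circTMEM45A 8.74% did. An antisense gene inside the locus, EGFR-AS1, had 18 to 35 reads in each library. Squamous markers moved as well. Of 8 tested, 5 fell (6 with median-of-ratios scaling) and 1 rose (75% called, against 18.8% of all genes). KRT5 went from 360 ± 11.6 to 238 ± 10.6 FPKM and the basal transcription factor TP63 from 27.8 ± 0.84 to 20.7 ± 1.79 FPKM. KRT17 went in the other direction, from 70.5 ± 4.28 to 98.7 ± 5.89 FPKM. The summed squamous markers ran from 705 to 744 FPKM with si-NC and from 571 to 614 FPKM with si-circTMEM45A. Their part in the EGFR result was not tested.

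ERBB2 (ENSG00000141736, chromosome 17, 39687914 to 39730426) encodes a receptor with no known ligand of its own that is the preferred partner of the others. It measured 18.5, 16.9 and 17.98 FPKM with si-NC and 21.4, 22.7 and 23.5 FPKM with si-circTMEM45A. Every si-circTMEM45A library was above every si-NC library, with a log2 fold change of 0.32 ± 0.05 (SE, n = 3; limma adjusted p = 0.00741). The annotated ERBB2 locus overlaps 2 genes on the opposite strand, PGAP3 and MIEN1, whose fold changes did not pass (log2 -0.23, limma adjusted p = 0.0565, and log2 -0.05, limma adjusted p = 0.765). Whether reads were counted by strand is not stated, so reads in the shared stretches cannot be told apart. ERBB3 (ENSG00000065361, chromosome 12, 56076799 to 56103505), a receptor for neuregulins with a weak kinase, measured 15.1, 14.8 and 15.4 FPKM with si-NC and 15.5, 14.8 and 16.4 FPKM with si-circTMEM45A. Its groups overlapped, and the log2 fold change was 0.04 with a 95% confidence interval of -0.07 to 0.15 (limma adjusted p = 0.593).

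**Figure D1:**
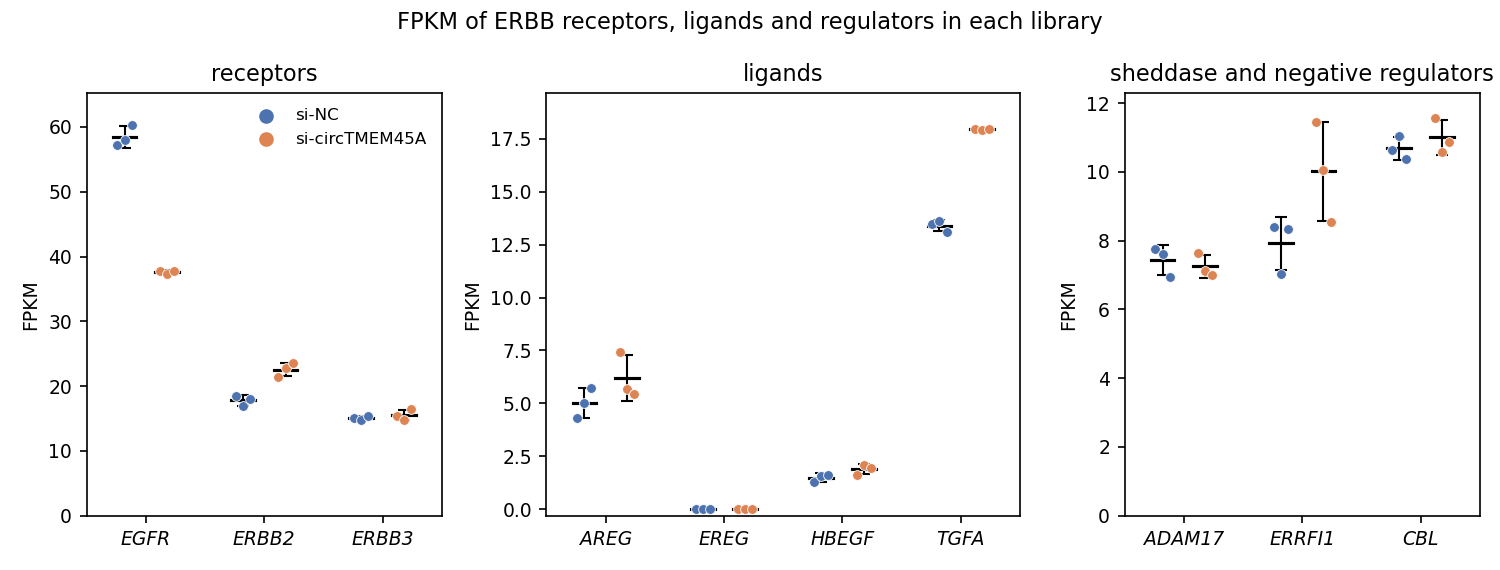
FPKM (vertical axes, linear) of the 10 genes in each of the 3 si-NC and 3 si-circTMEM45A libraries (points), with the mean (bar) and SD (whiskers). EGFR lies at 57.1 to 60.4 FPKM with si-NC and 37.2 to 37.8 FPKM with si-circTMEM45A, while all TGFA and ERBB2 points with si-circTMEM45A lie above those with si-NC.

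The makeup of the receptor pool changed with these levels. EGFR made up 63.0, 64.6 and 64.4% of the summed FPKM of the 3 receptors in the si-NC libraries, and 50.6, 49.8 and 48.6% in the si-circTMEM45A libraries. The means were 64.0 ± 0.91% and 49.7 ± 1.02% (SD, n = 3), without overlap (exact two-sided permutation test, p = 0.1, the smallest that 3 against 3 libraries allow, and 0.125 after adjustment over the 5 per-library measures tested). ERBB2 took 19.5 ± 0.83% and then 29.8 ± 0.97% of the pool, and ERBB3 16.5 ± 0.11% and then 20.5 ± 0.70% (SD, n = 3). ERBB3 thus took a larger share while its own fold change did not pass. The EGFR level was 3.29 ± 0.18 times that of ERBB2 with si-NC and 1.67 ± 0.08 times with si-circTMEM45A (SD, n = 3). The summed receptor FPKM was 91.4 ± 2.1 and 75.7 ± 1.70 (SD, n = 3). A share within a library does not change when all genes of that library are scaled by 1 factor.

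Among the ligands, TGFA (transforming growth factor alpha; ENSG00000163235, chromosome 2, 70447280 to 70554193) was the most abundant in every library. It measured 13.5, 13.6 and 13.1 FPKM with si-NC and 17.94, 17.91 and 17.98 FPKM with si-circTMEM45A. The si-circTMEM45A libraries were almost level with each other and above all si-NC libraries, with a log2 fold change of 0.40 ± 0.04 (SE, n = 3; limma adjusted p = 0.00138). AREG (amphiregulin; ENSG00000109321, chromosome 4, 74445134 to 74455009) measured 4.31, 5.00 and 5.73 FPKM with si-NC and 7.45, 5.68 and 5.46 FPKM with si-circTMEM45A. Its highest value was in 1 si-circTMEM45A library, the other two of that group lay within the si-NC range, and the log2 fold change of 0.26 (95% confidence interval -0.04 to 0.55) did not pass (limma adjusted p = 0.195). HBEGF (heparin-binding EGF-like growth factor; ENSG00000113070, chromosome 5, 140332843 to 140346631) measured 1.27, 1.57 and 1.64 FPKM with si-NC and 1.64, 2.101 and 1.93 FPKM with si-circTMEM45A. The groups met at 1.64 FPKM, and the log2 fold change of 0.21 (95% confidence interval -0.04 to 0.46) did not pass (limma adjusted p = 0.213). HBEGF rested on 65 to 107 reads and AREG on 120 to 211 reads per library and TGFA on 1102 to 1546. EREG (epiregulin; ENSG00000124882, chromosome 4, 74365143 to 74388751) had 0, 2 and 0 reads with si-NC and 1, 3 and 0 reads with si-circTMEM45A. No library held more than 3 reads of it, and 3 reads correspond to 0.0303 to 0.0315 FPKM at these depths (counting error only), so no fold change is given.

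The summed FPKM of the 4 ligands was 19.0, 20.2 and 20.5 with si-NC and 27.0, 25.7 and 25.4 with si-circTMEM45A. The groups did not overlap, with means of 19.9 ± 0.75 and 26.0 ± 0.88 (SD, n = 3; exact two-sided permutation p = 0.1, adjusted 0.125). Set against their receptor, the ligands summed to 0.340 ± 0.008 of the EGFR level with si-NC and to 0.693 ± 0.022 of it with si-circTMEM45A (SD, n = 3), again without overlap (exact two-sided permutation p = 0.1, adjusted 0.125). That ratio includes the fall of EGFR and is not a result apart from it. The mix of ligands did not separate the groups. AREG made up 22.6, 24.7 and 28.0% of the ligand sum with si-NC and 27.5, 22.1 and 21.5% with si-circTMEM45A (exact two-sided permutation p = 0.5, adjusted 0.5), and without si-NC replicate 3 the difference changed from -1.40 to 0.034 percentage points. TGFA made up 67.3 ± 3.34 and 68.9 ± 2.32% of it (SD, n = 3).

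**Figure D2:**
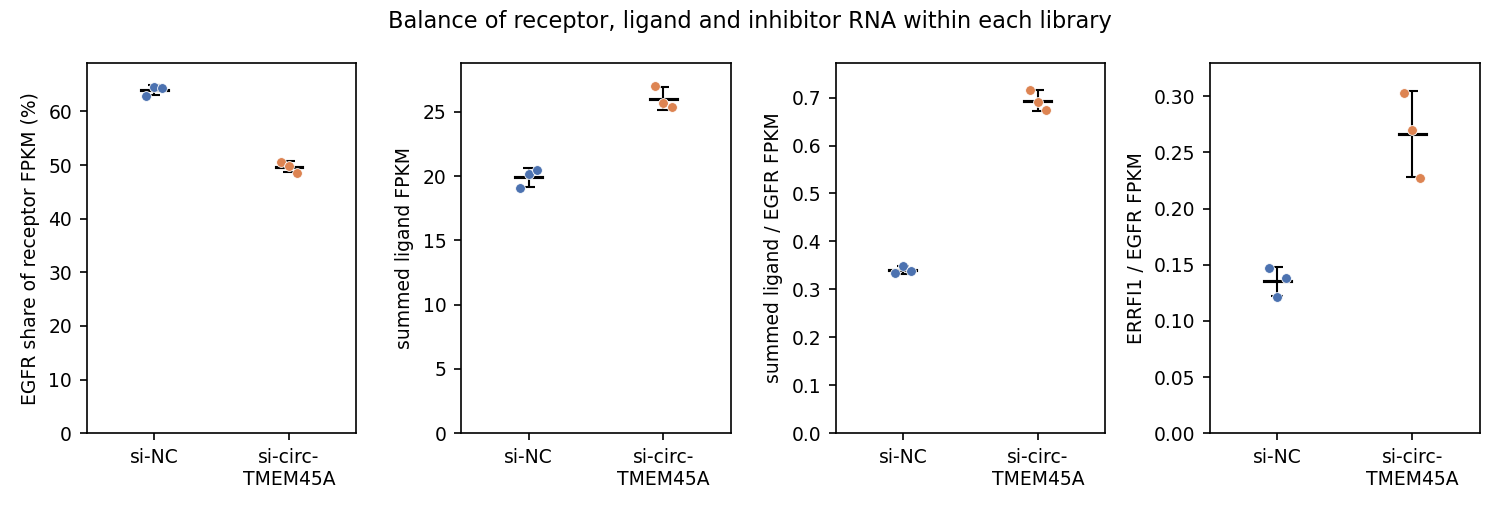
EGFR share of the receptor FPKM in percent, summed ligand FPKM, summed ligand FPKM over EGFR FPKM, and ERRFI1 FPKM over EGFR FPKM in each library (points; bar, mean; whiskers, SD; n = 3 per group). In all 4 panels the groups are separate, with the EGFR share near 64.0 and 49.7% and the ligand to EGFR ratio near 0.340 and 0.693. EGFR enters every panel except the summed ligand FPKM.

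ADAM17 (ENSG00000151694, chromosome 2, 9488486 to 9556732), the sheddase, measured 7.75, 7.60 and 6.95 FPKM with si-NC and 7.64, 7.13 and 6.997 FPKM with si-circTMEM45A. The groups overlapped, and the 95% confidence interval of its log2 fold change ran from -0.16 to 0.10 around -0.03 (limma adjusted p = 0.746). ERRFI1 (also known as MIG6; ENSG00000116285, chromosome 1, 8004404 to 8026308), a feedback inhibitor that is itself induced by EGFR signalling, measured 8.38, 7.04 and 8.33 FPKM with si-NC and 11.4, 10.1 and 8.55 FPKM with si-circTMEM45A. No si-circTMEM45A library was as low as a si-NC library, but their spread was wide and the log2 fold change of 0.30 ± 0.11 (SE, n = 3) did not pass over all genes (limma adjusted p = 0.0921). It passed without si-circTMEM45A replicate 3 (limma adjusted p = 0.0448) and with limma voom on recovered reads (adjusted p = 0.00981), within a range of 0.00981 to 0.255 over the alternatives. Relative to EGFR, ERRFI1 stood at 0.135 ± 0.013 with si-NC and 0.267 ± 0.038 with si-circTMEM45A (SD, n = 3), without overlap (exact two-sided permutation p = 0.1, adjusted 0.125). EGFR is the divisor of this ratio, so its fall is counted here again. CBL (ENSG00000110395, chromosome 11, 119206276 to 119313926), the ubiquitin ligase, measured 10.6, 11.0 and 10.4 FPKM with si-NC and 11.6, 10.6 and 10.9 FPKM with si-circTMEM45A. Its groups overlapped, with a log2 fold change of 0.04 (95% confidence interval -0.08 to 0.15; limma adjusted p = 0.628).

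**Figure D3:**
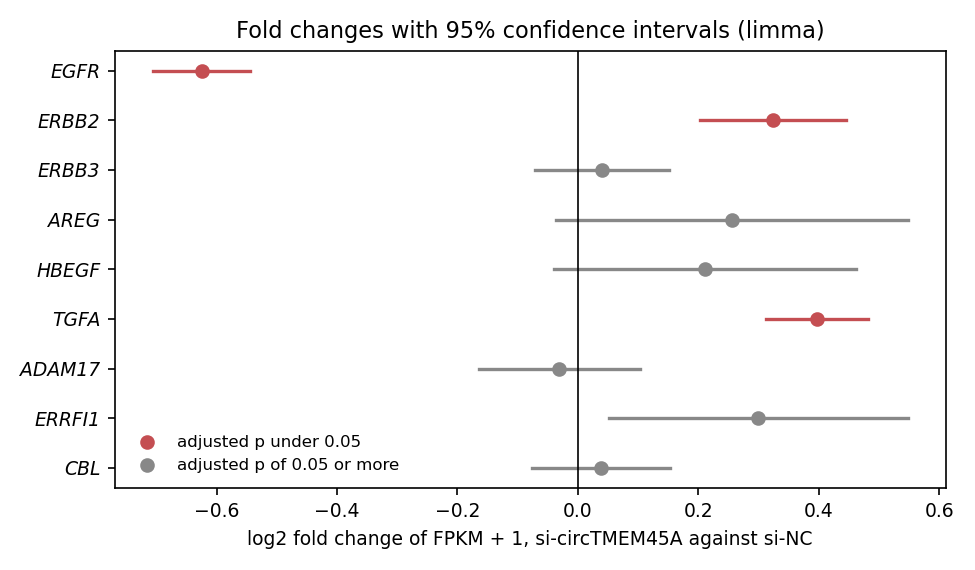
The log2 fold change of FPKM + 1 (horizontal axis) of the 9 tested members, with 95% confidence intervals from limma (n = 3 libraries per group; red, adjusted p under 0.05). EGFR at -0.62 is the only member whose interval lies below 0, and the intervals of ERBB2, TGFA and ERRFI1 lie above 0, the last without passing the adjusted threshold.

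The groups did not overlap for 4 of the 9 tested members, EGFR, ERBB2, TGFA and ERRFI1, against 39.2% of all tested genes. The calls of EGFR, ERBB2 and TGFA were made under all 17 alternative settings, with limma adjusted p of at most 0.00628, 0.0292 and 0.0118. The median log2 fold change of the 9 members was 0.21, and that of all tested genes 0.03. In order of mean FPKM, si-NC libraries ran EGFR, ERBB2, ERBB3, TGFA, CBL, ERRFI1, ADAM17, AREG, HBEGF and EREG, and only ERRFI1 and ADAM17 overlapped as neighbours. With si-circTMEM45A the order was the same except that TGFA stood above ERBB3. In that group the ranges of CBL and ERRFI1 and those of ADAM17 and AREG overlapped.

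The genes whose pattern over the 6 libraries was most like that of EGFR were EFCAB14, KRT5, BHLHE40, PPP1CB and RECQL. Likeness was the root mean square difference of log2(FPKM over the gene's own mean), among 4871 tested genes with a mean of at least 10 FPKM, and it was 0.026 for EFCAB14 and 0.057 for RECQL. Likeness was taken over both groups, so a fall close to that of EGFR follows from how the 5 genes were chosen. Their falls ran from log2 -0.57 for BHLHE40 to -0.66 for RECQL. For AREG, the nearest were MALAT1, MRPL36, ALG5, TMSB4XP8 and ZNF317, at 0.074 to 0.105. TMSB4XP8 is a processed pseudogene of an abundant gene, so its reads are uncertain.

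Other genes of the pathway were read from the same fit in lists by role. Together 63 of 76 were tested, 6 rose and 8 fell (22.2% called, against 18.8% of all genes), and their median log2 fold change was 0.02. These counts depended on single libraries. The 14 became 8, 7 and 8 when si-NC replicate 1, 2 or 3 was left out, and 5 when si-circTMEM45A replicate 2 or replicate 3 was. Median-of-ratios scaling gave 3 higher and 10 lower, and quantile normalization 3 and 9. Of the 14 called genes, RHBDF1, PTPN1, NRAS, STAT3 and CCND1 were called under all 17 alternatives, and the other 9 were lost in 3 to 11 of them.

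In the shedding machinery 1 of 5 tested genes rose and 1 fell (40% called, against 18.8% of all genes), with a median log2 fold change of -0.04. RHBDF1, an inactive rhomboid protein (iRhom1) that guides ADAM17 to the cell surface, rose from 12.5, 12.5 and 13.7 FPKM to 16.4, 17.1 and 17.4 FPKM (log2 fold change 0.37 ± 0.05, SE, n = 3; limma adjusted p = 0.0041). Its relative RHBDF2 stood at 9.25 to 9.77 FPKM with si-NC and 8.60 to 9.90 FPKM with si-circTMEM45A, and did not pass. ADAM10, the sheddase of EGF and betacellulin, fell from 12.6 ± 0.23 to 11.1 ± 0.25 FPKM (SD, n = 3; limma adjusted p = 0.0291). Leaving out any 1 library other than si-circTMEM45A replicate 1 ended its call (limma adjusted p between 0.0616 and 0.0898).

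In the list of receptor trafficking and inhibitors 3 of 20 tested genes fell and 0 rose (15% called, against 18.8% of all genes). The median log2 fold change was 0.00. At an unadjusted p under 0.05 there were 9 of the 20, against 4316 of all 12676 genes, and leaving out 1 library lowered the 9 to as few as 4 (si-NC replicate 2) or 5 (si-NC replicate 1, and likewise replicate 2 or replicate 3 of si-circTMEM45A). Limma voom on recovered reads called 2 higher and 4 lower in this list. The phosphatase PTPN1, which dephosphorylates receptor tyrosine kinases, fell from 46.1 ± 0.42 to 38.2 ± 2.62 FPKM (SD, n = 3; limma adjusted p = 0.0132). PTPN12, another phosphatase of ERBB signalling, fell from 30.9 ± 1.16 to 26.8 ± 0.91 FPKM (limma adjusted p = 0.0222), and RNF41, a ubiquitin ligase of ERBB3, from 6.57 ± 0.20 to 5.44 ± 0.41 FPKM (limma adjusted p = 0.038). The PTPN12 call ended when either replicate 1 or replicate 2 of si-NC, or else replicate 2 or replicate 3 of si-circTMEM45A, was left out (limma adjusted p between 0.0562 and 0.0704), and the RNF41 call when any 1 library was (between 0.0505 and 0.108). The CBL relative CBLC stood at 30.3 ± 0.59 and 32.5 ± 0.50 FPKM and did not pass (limma adjusted p = 0.097).

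Of 23 genes that relay the signal, 3 rose and 3 fell (26.1% called, against 18.8% of all genes), with a median log2 fold change of 0.03. The small GTPase NRAS fell from 43.1, 42.0 and 40.9 FPKM to 31.8, 28.7 and 29.7 FPKM (log2 fold change -0.47 ± 0.05, SE, n = 3; limma adjusted p = 0.00165). HRAS, another RAS gene, did not pass, at a log2 fold change of -0.05. The transcription factor STAT3 rose from 27.1 ± 0.30 to 33.7 ± 0.50 FPKM (SD, n = 3; limma adjusted p = 0.00217). The PI3K catalytic subunit PIK3CB fell from 11.0 ± 0.93 to 8.62 ± 0.47 FPKM (limma adjusted p = 0.0187) and the regulatory subunit PIK3R1 rose from 1.69 ± 0.15 to 2.36 ± 0.13 FPKM (limma adjusted p = 0.0391). Leaving out si-circTMEM45A replicate 2 or replicate 3 ended the PIK3CB call (limma adjusted p = 0.0553 and 0.0625). The PIK3R1 call ended when any 1 library was left out (limma adjusted p between 0.0535 and 0.106) and with median-of-ratios scaling or quantile normalization (limma adjusted p = 0.0505 and 0.0639). The kinase gene MAPK3 did not pass, at a log2 fold change of 0.08.

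Genes whose RNA follows ERK activity in many epithelial cells gave 2 that rose and 1 that fell among 14 tested. That is 21.4% called, against 18.8% of all genes, with a median log2 fold change of 0.08. The cyclin CCND1 fell from 63.7, 57.2 and 56.2 FPKM to 37.3, 35.99 and 39.9 FPKM, a log2 fold change of -0.63 ± 0.06 (SE, n = 3; limma adjusted p = 0.00151). The AP-1 subunit FOSL1 went the other way, from 26.4, 25.5 and 22.1 FPKM to 30.7, 30.8 and 30.5 FPKM (limma adjusted p = 0.0186), a call that ended when si-circTMEM45A replicate 2 or replicate 3 was left out (limma adjusted p = 0.0553 and 0.0548). SPRED2, an inhibitor of RAF activation, rose from 7.20 ± 0.17 to 8.26 ± 0.22 FPKM (SD, n = 3; limma adjusted p = 0.035), a call that ended when any 1 library was left out (limma adjusted p between 0.0698 and 0.108) and with median-of-ratios scaling or quantile normalization (0.0595 and 0.0506). The immediate early gene EGR1 measured 37.8 ± 0.29 and 35.04 ± 1.52 FPKM and did not pass (limma adjusted p = 0.113), and DUSP6, SPRY4, ETV5 and EPHA4 were below the filter.

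Among other receptor tyrosine kinases 4 of 15 tested genes fell and 1 rose (33.3% called, against 18.8% of all genes), with a median log2 fold change of -0.13. The 5 calls became 3, all lower, when replicate 1 or replicate 2 of si-NC, or else replicate 2 or replicate 3 of si-circTMEM45A, was left out. FGFR2 fell from 30.8, 32.8 and 33.3 FPKM to 22.1, 23.5 and 23.4 FPKM (log2 fold change -0.47 ± 0.04, SE, n = 3; limma adjusted p = 0.00155). AXL fell from 90.0 ± 1.75 to 69.2 ± 4.26 FPKM (SD, n = 3; limma adjusted p = 0.00368) and FGFR4 from 3.14 ± 0.16 to 1.92 ± 0.24 FPKM (limma adjusted p = 0.00892). EPHB4 rose from 18.4 ± 1.23 to 21.5 ± 0.84 FPKM (limma adjusted p = 0.0391), a call that ended under 9 of the 17 alternatives, among them TPM (limma adjusted p = 0.0537), median-of-ratios scaling (0.0763) and leaving out from si-NC replicate 1 (0.106) or replicate 2 (0.107), or from si-circTMEM45A replicate 2 or replicate 3 (0.108 each). MET, the receptor of hepatocyte growth factor, fell from 41.6 to 36.8 mean FPKM (limma adjusted p = 0.0463), a call that ended under 7 of the 17 alternatives; it was named after its values were seen. The mean FPKM of FGFR4 fell by 39.0% and that of EGFR fell by 35.8%. Whether the EGFR fold change differed from those of FGFR2, FGFR4 and AXL was not tested.

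**Figure D4:**
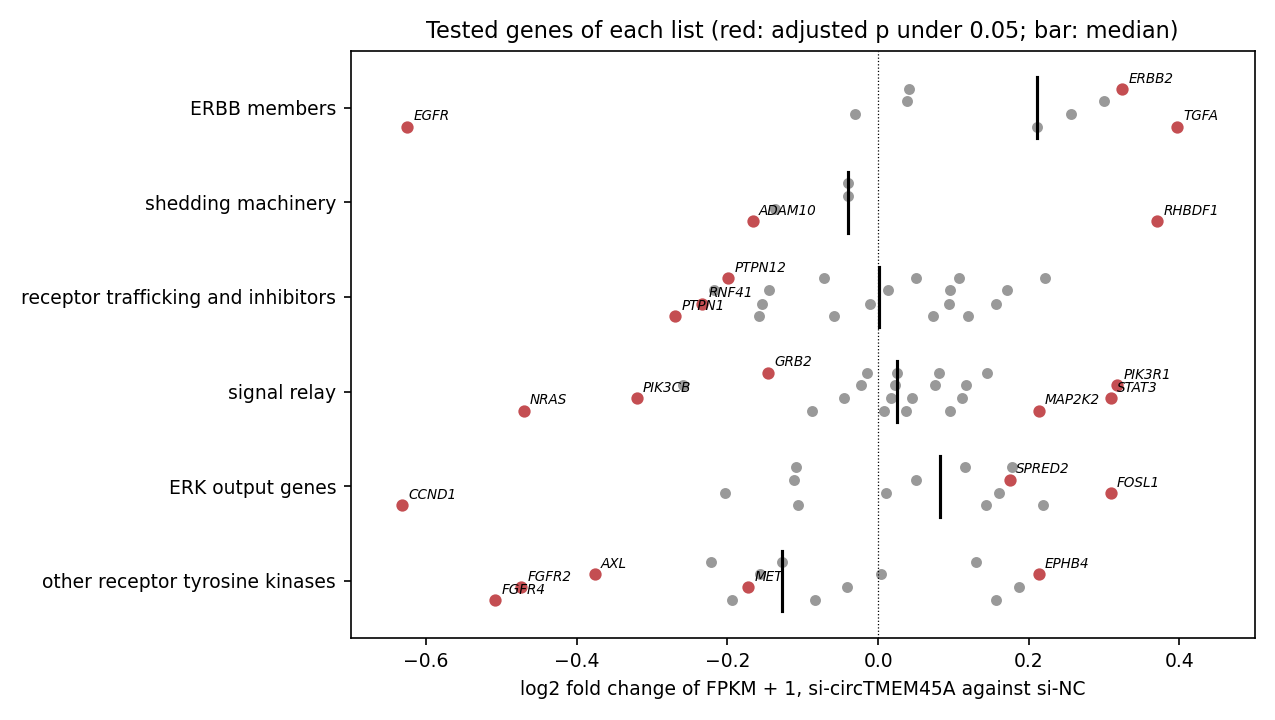
The log2 fold change of FPKM + 1 (horizontal axis) of each tested gene by list (points; red, limma adjusted p under 0.05; black bars, list medians; vertical scatter within a list has no meaning). EGFR at -0.62 and CCND1 at -0.63 lie farthest to the left, while the list medians lie between -0.13 and 0.21.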

How the data were processed

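RNA-seq of 6 KYSE-150 libraries was used, grouped by sample title. The authors deposited FPKM per Ensembl gene. Tools named in the submitters' processing notes are HISAT2 2.2.1, StringTie 2.1.6, HTSeq, TopHat2 and cutadapt 1.9, with the build GRCh38. Their roles, the annotation and the strand setting are not stated. Symbols matched 29593 of 29816 genes. Reads were recovered as FPKM times GENCODE 29 union exon length times a library total; 100% of the results were whole within 0.001, so depth is known.

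A gene was tested if 3 or more libraries reached an FPKM of 1. Fold changes are on the log2(FPKM + 1) scale, which shrinks those of low genes, and come from limma 3.58.1 (R 4.3.3, mean-variance trend, two-sided). P-values were Benjamini-Hochberg adjusted across all 12676 genes; the threshold was 0.05. The procedure was first tested on simulated data. Per-library sums and ratios were compared by exact permutation tests (scipy 1.17.1).

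The members and lists were chosen with earlier results of these data known. All members were named, up to 4 called genes of each list by smallest p, and the 5 genes most like EGFR and AREG; others were named after their values were seen. Alternatives were leaving out each library, a replicate block, robust estimation, a constant variance prior, quantile or median-of-ratios scaling, TPM, a filter at FPKM 5 or none, pseudocounts of 0.5 and 0.1 and, chosen after seeing the data, limma voom on the recovered reads. RefSeq windows (GRCh38.p14) were found for 8 of 10 members. Python 3.11.15, numpy 2.4.6, pandas 2.3.3 and matplotlib 3.10.9 were used. Some genes of the lists are counted but not reported by name here.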

Additional observations from a re-analysis of the deposited data

How the results depend on the processing

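Of 152 member fold changes under alternatives, 150 kept their direction and their side of the threshold, and the other two are the ERRFI1 calls given above. All 45 recomputed ratios and sums kept their direction except the AREG share. It ranged from -3.31 to 0.034 percentage points over the fits that left out 1 library. Part of the 45 could not move. TPM and median-of-ratios scaling leave every ratio within a library as it was, and the replicate block leaves the mean difference as it was. For the ratios, only leaving out 1 library could change the direction. With no filter, which adds low genes to the adjustment, 1254 genes and 6 pathway genes were called, against 2380 and 14. Leaving out 1 library, which leaves fewer samples, gave 1360 to 1964 genes and 5 to 13 pathway genes. Limma voom on recovered reads called 22 pathway genes; the cause was not tested. The labels do not say whether equal replicate numbers pair libraries, and the values do not settle it. Same-numbered libraries deviated together at r = 0.011 to 0.047 across genes, and 5 of 6 libraries correlated best with their own number. With the replicate block 7 pathway genes and 3 members were called. EREG, at 3 reads or fewer in each library, could not be tested at this depth.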

Other observations

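Further EGFR ligands lie beside AREG and EREG on chromosome 4 and were below the filter. Betacellulin (BTC) measured 0.021, 0.085 and 0.084 FPKM with si-NC and 0.372, 0.147 and 0.307 FPKM with si-circTMEM45A, which is 9 against 40 reads over each group. Epigen (EPGN) measured 0.228, 0.133 and 0.098 FPKM with si-NC and 0.353, 0.229 and 0.318 FPKM with si-circTMEM45A, or 14 against 28 reads. The FPKM ranges of the groups did not overlap for either gene, as for 39.2% of all tested genes (exact two-sided permutation p = 0.1, the smallest possible). For EPGN this rested on library depth, since si-NC replicate 1 and si-circTMEM45A replicate 2 both had 7 reads. In limma with no filter neither gene passed (adjusted p = 0.155 and 0.275). ERBB4 had 2 and 6 reads over the groups. NRG1, a ligand of ERBB3 and ERBB4, was at 4.99 to 5.36 FPKM with si-NC and 4.74 to 5.34 FPKM with si-circTMEM45A and did not pass (limma adjusted p = 0.566). EGF and NRG3 had no row under these symbols in the deposited expression table and could not be analysed.

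The nearest tested protein-coding genes on each side of EGFR, ERBB2 and TGFA were looked up after the values of the members were seen. Beside EGFR, SEC61G and LANCL2 had log2 fold changes of 0.07 and 0.02, beside ERBB2, STARD3 and GRB7 had -0.11 and 0.06, and beside TGFA, FAM136A and TEX261 had -0.02 and -0.09. None of these 6 neighbours passed in limma (adjusted p 0.259 to 0.901).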
